A study of Mus musculus with 2 samples.

Results

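Krüppel-like factor (KLF) genes were followed in chromatin accessibility data (ATAC-seq, in which the transposase Tn5 cuts and tags open DNA) from sorted basal cells of mouse back skin. The members were 10 KLF genes, Klf2, Klf3, Klf4, Klf5, Klf6, Klf7, Klf9, Klf10, Klf11 and Klf13. A merged open region with at least 20 counts over both libraries belonged to a member when the nearest span of a protein-coding gene (RefSeq, GRCm38), at most 50 kb away, was that of the member. A region inside several spans went to the shortest. This gave 90 regions, 33 of them inside the gene spans, out of 81252 assigned to 16949 genes, and a further 13 regions of the members held fewer than 20 counts. The stretched library came from 1 CD1 mouse (an outbred stock) whose skin was expanded by force, and the control library from 1 untreated CD1 mouse. From each animal, 10000 cells of the epidermis between the hair follicles were sorted as positive for ITGA6, an integrin that anchors basal cells, and negative for CD34, which hair follicle stem cells carry. With 1 animal per group there is no replicate check and no p-value. Stretching, differences between the animals (genotype and copy number included) and library preparation cannot be told apart.

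KLF proteins bind GC-rich DNA boxes and CACCC boxes through a set of zinc fingers at their C-terminal end, and they compete for such sites with the related SP factors. Klf2, Klf4, Klf5, Klf6 and Klf7 act mainly as activators, Klf3 is a repressor that recruits CtBP, and Klf9, Klf10, Klf11 and Klf13 can recruit the corepressor SIN3A. In the epidermis, Klf4 is needed for the barrier and acts in differentiating cells, while Klf5 is found mainly in the proliferative basal layer. Several of these genes, Klf6 and Klf10 among them, are transcribed rapidly after growth factor or injury signals.

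The promoter sequences below are those of the 3 members whose promoter region passed the limit for higher counts, Klf6, Klf7 and Klf9, followed by those of Klf4 and Klf2, whose promoters had the lowest folds. They run from 250 bases before to 50 bases after the annotated start on the gene's own strand (RefSeq, GRCm38.p6), and 8 of the 10 members matched an entry. Capitals mark matches on either strand to the GC boxes GGGCGGG and CCGCCC and to the CACCC box. Every GGGCGGG also holds a CCGCCC on the other strand. The windows are chr13:5861239-5861538 (plus strand) for Klf6, chr1:64121340-64121639 (minus strand) for Klf7, chr19:23140976-23141275 (plus strand) for Klf9, chr4:55532426-55532725 (minus strand) for Klf4 and chr8:72318812-72319111 (plus strand) for Klf2.
Klf6: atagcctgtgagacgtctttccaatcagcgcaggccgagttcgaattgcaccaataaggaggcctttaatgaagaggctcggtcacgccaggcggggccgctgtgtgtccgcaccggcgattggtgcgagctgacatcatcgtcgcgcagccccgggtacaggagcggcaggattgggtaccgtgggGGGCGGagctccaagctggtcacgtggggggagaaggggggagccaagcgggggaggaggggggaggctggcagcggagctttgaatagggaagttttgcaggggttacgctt
Klf7: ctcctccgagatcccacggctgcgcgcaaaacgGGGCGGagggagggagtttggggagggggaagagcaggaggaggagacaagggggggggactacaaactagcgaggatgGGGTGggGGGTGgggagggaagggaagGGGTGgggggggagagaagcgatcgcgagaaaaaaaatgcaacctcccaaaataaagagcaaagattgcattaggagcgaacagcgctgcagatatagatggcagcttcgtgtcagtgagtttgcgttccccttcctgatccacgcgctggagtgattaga
Klf9: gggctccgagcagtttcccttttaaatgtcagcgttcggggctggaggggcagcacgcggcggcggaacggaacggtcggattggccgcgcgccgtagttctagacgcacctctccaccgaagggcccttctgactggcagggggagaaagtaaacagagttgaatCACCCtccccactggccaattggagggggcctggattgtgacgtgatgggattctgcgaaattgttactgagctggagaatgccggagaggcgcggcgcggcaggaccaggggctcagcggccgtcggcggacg
Klf4: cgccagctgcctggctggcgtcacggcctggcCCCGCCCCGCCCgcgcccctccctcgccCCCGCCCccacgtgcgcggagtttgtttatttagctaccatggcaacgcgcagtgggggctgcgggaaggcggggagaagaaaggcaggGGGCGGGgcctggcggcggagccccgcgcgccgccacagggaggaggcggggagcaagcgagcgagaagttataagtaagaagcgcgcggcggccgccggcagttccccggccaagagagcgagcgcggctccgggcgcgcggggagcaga
Klf2: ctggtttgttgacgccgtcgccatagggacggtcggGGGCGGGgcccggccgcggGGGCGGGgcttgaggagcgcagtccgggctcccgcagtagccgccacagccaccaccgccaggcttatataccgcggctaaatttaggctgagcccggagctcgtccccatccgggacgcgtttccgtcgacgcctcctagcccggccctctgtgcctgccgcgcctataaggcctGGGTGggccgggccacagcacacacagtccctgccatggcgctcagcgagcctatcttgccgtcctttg

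None of the 3 windows of promoters called higher held GGGCGGG, while the number of CACCC boxes varied at both high and low folds. A link between boxes and folds was not tested. Klf6 had 1 CCGCCC and neither of the other motifs, Klf7 had 3 CACCC and 1 CCGCCC, and Klf9 had 1 CACCC alone. In the window of Klf4 there were 4 GGGCGGG and no CACCC, and in that of Klf2 there were 2 GGGCGGG and 1 CACCC. Klf11 and Klf13, whose promoter folds came next below the limit, had 3 and 2 GGGCGGG. Of the 8 KLF windows, 5 held GGGCGGG, 7 held CCGCCC and 5 held CACCC, against 33.9%, 46.2% and 59.5% of 21263 promoter windows of protein-coding genes. The CCAAT box, searched after the values were known, occurred 4 times at Klf6 and 3 times at Klf9, in 4 of the 8 windows and in 38.2% of all windows. The AP-1 motif TGACTCA (4.66% of all windows) and the TEAD motif GGAATG (13.6%), also searched afterwards, were in none of the 8 windows. The GC content was 63.0% at Klf6, 58.3% at Klf7, 63.3% at Klf9, 74.3% at Klf4 and 69.3% at Klf2, beside a median of 56.3% over all windows. These matches describe the letters of the windows and not occupied sites.

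The libraries differed in ways that bear on every fold below. Counts over the 109257 merged regions summed to 11803785 in the stretched library and 8820178 in the control. The filtered fragments went the other way, with 23876613 in the stretched library and 31944854 in the control. Together, 10 regions with over 10000 counts each took 48.9% of the stretched and 34.5% of the control counts. Outside them the sums were 6027023 and 5776423. Folds are therefore stretched over control after scaling by trimmed mean of M-values (TMM), which sets the median region close to 1, and intervals are exact 95% intervals for counting error only. Under scaling by all counts the median region had a log2 fold of -0.50, to which changes under that scaling are relative. The fold also grew with the count of a region, as the strongest promoters show: the median log2 fold was 0.25 over all promoter regions and 0.44 over those with at least 200 counts. Of the basal keratinocyte markers, 6 of 6 had a promoter peak in both libraries (5601 stretched and 5448 control counts, fold 1.09). Of the 4 immune markers none had one (229 and 287 counts, fold 0.843). The other cell type lists had 1 of 4 promoters with a peak for fibroblasts (871 and 1118 counts, fold 0.823, Lum without any peak), 1 of 3 for endothelium (849 and 996, fold 0.901), 3 of 4 for melanocytes (566 and 639, fold 0.936), 3 of 4 for suprabasal cells (939 and 1137, fold 0.873) and 4 of 4 for hair follicle stem cells (1714 and 2017, fold 0.898), the same in both libraries. The part of these lists in the KLF values was not tested, and in sorted bulk cells a larger share of cells with an open site and a more open site per cell cannot be told apart.

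Accessibility at the KLF genes was more often higher than lower in the stretched library, a direction that turned to 3 regions higher and 9 lower with scaling by all counts. Most of the higher regions lay at Klf6. A region was called higher or lower at a fold of at least 2 or at most 1/2 with an interval that excludes 1. By this rule 14 of the 90 KLF regions were higher and 1 was lower, against 6.9% higher and 8.66% lower of all assigned regions. Klf6 held 8 of the 14, Klf5 3, Klf7 2 and Klf9 1. Without Klf6, 6 of 78 regions were higher, a share close to the 6.9% of all assigned regions. A fold above 1 was found at 58 of the 90 KLF regions and at 49.6% of all assigned regions. The median log2 fold was 0.28 for the KLF regions and -0.01 for all assigned regions. Of the 41 KLF regions with at least 100 counts, 8 were higher and none was lower, against 6.11% and 2.84% of the 31351 assigned regions with that many. Outside Klf6, only the promoter regions of Klf7 and Klf9 were among these 8.

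The counts depend on the scaling. With scaling by all counts, 3 KLF regions were higher and 9 lower, against 1.47% and 23.4% of all assigned regions. With the 10 large regions left out of the totals, 7 were higher and 2 lower, against 4.63% and 11.7%. With the trend of the fold on the count removed, 12 were higher and 1 was lower, against 6.96% and 7.45%.

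**Figure D1:**
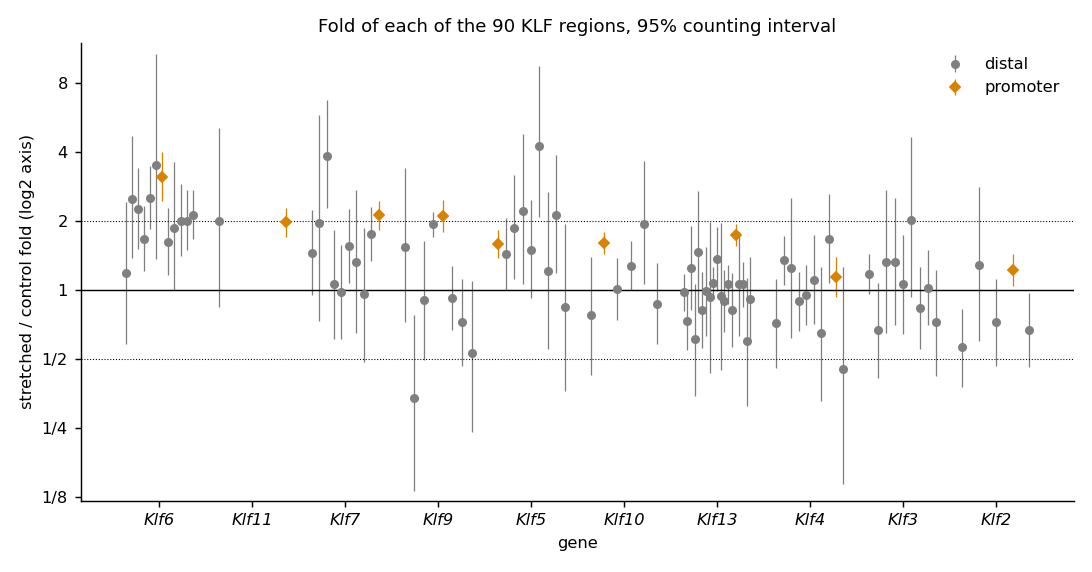
Fold of stretched over control (log2 axis, TMM scaling) for each of the 90 regions of the 10 KLF genes, ordered by the fold of the gene's summed counts and, within a gene, by position; bars are 95% counting intervals, diamonds promoter and circles distal regions, and dotted lines the limits of 2 and 1/2. With this scaling all 12 regions of Klf6 lie above 1, while those of Klf13, Klf4, Klf3 and Klf2 lie on both sides of it.

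Promoter and distal regions were then taken apart. A promoter region is one within 1 kb of the annotated start, or of either gene end for Klf5 and Klf10, for which the reference used here gave no strand. Of the 9 members with a promoter region, 3 had it called higher and none lower, beside 9.14% and 3.47% of all promoter regions and 12.5% higher of the 7300 promoter regions with at least 200 counts, a class to which all 9 belong. The median log2 fold of the 9 promoters was 0.80, beside 0.44 for the promoter regions with at least 200 counts. Of the 81 distal regions, 11 were higher and 1 was lower, beside 6.46% and 9.69% of all distal regions, and the median log2 fold was 0.15 for the KLF distal regions and -0.06 for all distal regions. Outside Klf6, 4 of 70 distal regions were higher, slightly below the 6.46% of all distal regions. A fold above 1 was found at 38 of these 70, beside 49.6% of all assigned regions. For summed counts over a gene, 7 of the 10 members had an interval above 1 and none below, against 36.1% and 18.6% of the 16949 genes, whose median fold was 1.08. These shares are not matched for counts, and an interval excludes 1 more readily at high counts. The median gene had 3 regions, and all members but Klf11 had more. With the trend of the fold on the count removed, 5 members were above 1, and Klf2 and Klf13 were below.

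**Figure D2:**
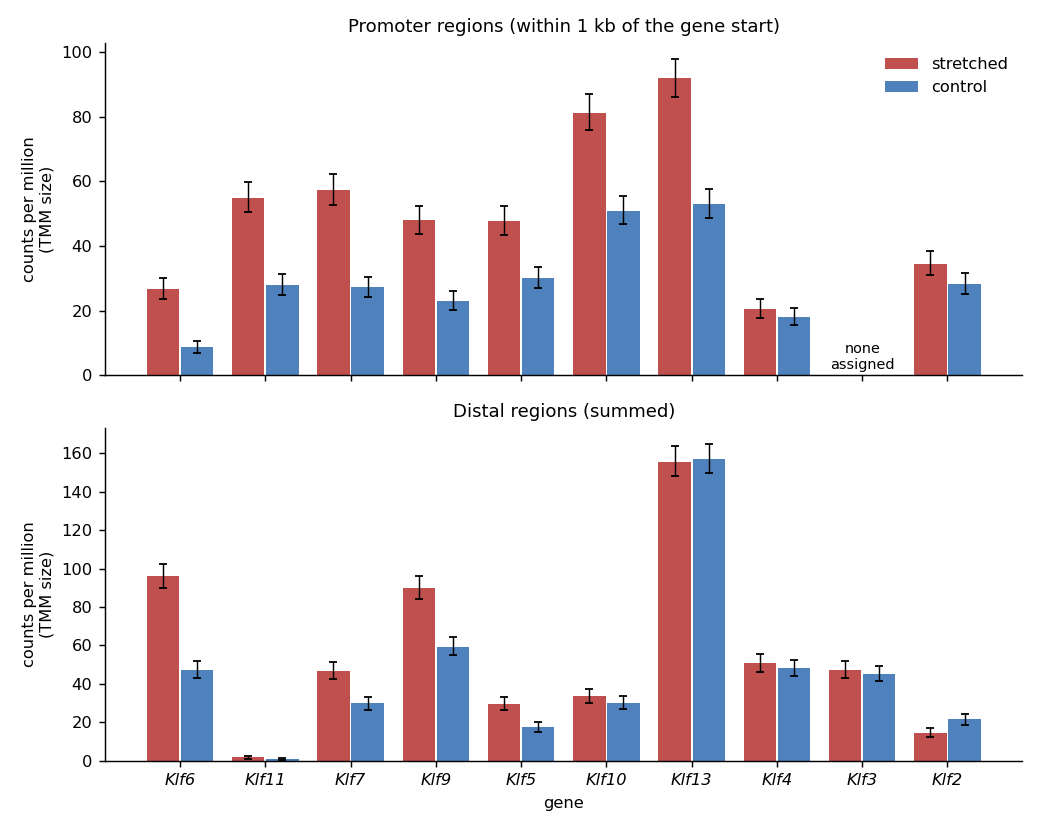
Counts at equal library size (CPM with TMM scaling) at the promoter region (top) and over all distal regions (bottom) of each KLF gene, with the stretched library left of the control; bars start at 0 and error bars are exact 95% Poisson intervals for counting error. With this scaling promoter bars are higher in the stretched library at all 9 members that have one (with scaling by all counts Klf2 and Klf4 turn lower), by the most at Klf6, whereas the distal bars of Klf13, Klf4 and Klf3 differ little and those of Klf2 are lower in the stretched library.

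Among the activators, 13 of 46 regions were higher and none lower, and without Klf6 5 of 34 were higher, against the 6.9% and 8.66% of all assigned regions. Klf6, a factor induced by injury and growth signals and known as a growth suppressor in some tumours, had the most. Its gene (chr13:5861489-5870393) stands alone, with the nearest protein-coding gene, Pitrm1, 677729 bp away. The promoter region chr13:5860781-5862112 held 265 counts in the stretched and 90 in the control library, a fold of 3.11 (2.44 to 4.00). Only 0.425% of the promoter regions with at least 200 counts had a fold this high or higher. It remained past 2 with scaling by all counts (2.20) and with the count trend removed (2.54).

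Distal regions of Klf6 were higher on both sides of the gene. Upstream, the region chr13:5844338-5846074, 15415 bp from the start, held 143 stretched and 60 control counts, a fold of 2.52 (1.85 to 3.46). The region chr13:5837258-5837896, further upstream, held 81 stretched and 38 control counts, a fold of 2.25 (1.51 to 3.40). Weaker regions at 35015 bp and 1790 bp upstream held 40 stretched and 17 control counts and 20 stretched and 6 control counts. Their folds were 2.49 and 3.52. Across the 3′ end of the gene, chr13:5869686-5870847 held 93 stretched and 49 control counts, a fold of 2.01 (1.40 to 2.90).

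Beyond the gene the same direction was seen. The strongest distal region, chr13:5892608-5893303, lies 22215 bp past the end and held 203 stretched and 101 control counts, a fold of 2.12 (1.66 to 2.72). The region chr13:5886586-5888093 held 133 stretched and 70 control counts, a fold of 2.01 (1.49 to 2.72). The remaining 4 regions had folds of 1.18, 1.62, 1.67 and 1.86. Thus all 12 regions had a fold above 1, which was so for 15 of the 2057 genes with at least 10 regions, Klf6 included. By the share of regions called higher, 66.7%, Klf6 ranked 1 of 2057.

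In sum Klf6 held 1217 stretched and 587 control counts, a fold of 2.19 (1.98 to 2.42). Its 11 distal regions alone held 952 and 497, a fold of 2.02 (1.81 to 2.26). The gene fold was 1.55 with scaling by all counts, when 1 region was still called higher, and 2.02 with the count trend removed, when 6 were. Several calls sit close to the limit of 2, so the count of called regions moves more than the folds do.

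**Figure D3:**
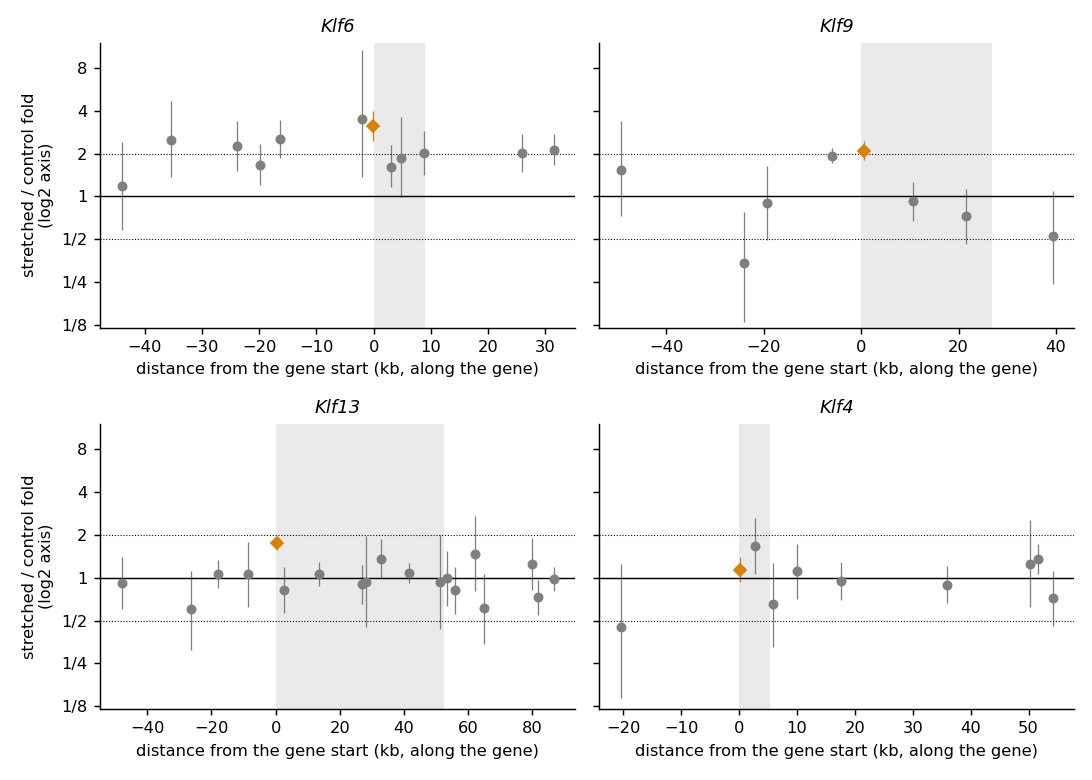
Fold of stretched over control (log2 axis) against the distance of each region's centre from the gene start, in kb along the direction of transcription, for Klf6, Klf9, Klf13 and Klf4; grey bands are the gene spans, diamonds promoter and circles distal regions, and bars 95% counting intervals. With TMM scaling, folds above 1 run along the whole Klf6 neighbourhood, the lowest being 1.18 at its upstream edge. At Klf9 the highest folds stand at the promoter and 1 upstream region. At Klf13 the highest is that of the promoter, 1.74, under the limit of 2.

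Klf7, an activator best known from neurons, was the second activator with a higher promoter. The promoter region chr1:64121223-64122584 held 570 stretched and 285 control counts, a fold of 2.11 (1.83 to 2.44), which 9.67% of strong promoter regions reached. Its fold was 1.40 with the count trend removed and 1.49 with scaling by all counts. Inside the gene, the strongest distal region, chr1:64118751-64119505, held 149 stretched and 90 control counts, a fold of 1.75 (1.34 to 2.30).

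A single site beyond the 3′ end of Klf7 had the largest fold of the locus. The region chr1:63995664-63996354, 33094 bp past the gene, held 69 stretched and 19 control counts, a fold of 3.84 (2.28 to 6.75). The tallest summit there reached 43 fragments in the stretched and 15 in the control library. The other distal regions of Klf7 had folds from 0.956 to 1.96, and the 9 distal regions together held 466 stretched and 313 control counts, a fold of 1.57 (1.36 to 1.82). The gene in all had 1036 and 598 counts, a fold of 1.83 (1.65 to 2.03). Left out of these sums were 2 regions under the minimum of 20 counts. They held 1 stretched and 15 control counts and 12 stretched and 4 control counts.

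Klf5, the factor of proliferating basal keratinocytes, had higher counts at its distal regions and a promoter short of the limit. The promoter region, chr14:99298181-99299644, held 474 stretched and 316 control counts, a fold of 1.59 (1.37 to 1.83). This fold was 1.07 (0.928 to 1.24) with the count trend removed. The 3 regions called higher were all weak: chr14:99332991-99334497 with 40 stretched and 10 control counts (fold 4.23, 2.08 to 9.48), chr14:99311447-99311716 with 25 and 12 (2.20), and chr14:99359944-99360439 with 38 and 19 (2.11). At chr14:99311447-99311716 the authors called a peak in the control library alone, against the direction of the counts. The strongest distal region, inside the gene at chr14:99301426-99301866, had 76 stretched and 56 control counts, a fold of 1.43 (from just above 1 to 2.06). Over its 8 distal regions Klf5 held 295 stretched and 182 control counts, a fold of 1.71 (1.42 to 2.07), and 1.81 with the count trend removed. The gene fold was 1.63 (1.46 to 1.83), from 769 and 498 counts.

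Klf4, the barrier gene, had no region called higher or lower, and its weakest, with 6 stretched and 14 control counts and a fold of 0.453, had an interval that holds 1. Its promoter region chr4:55531302-55533440 held 203 stretched and 189 control counts, a fold of 1.13 (0.926 to 1.39). The strongest distal region, chr4:55480184-55481611, lies 45526 bp past the gene end and held 154 stretched and 121 control counts, a fold of 1.34 (1.05 to 1.72). The 10 regions together held 706 and 695 counts, a fold of 1.07 (0.965 to 1.19), and folds of single regions ran from 0.453 to 1.66. With scaling by all counts the gene fold was 0.759.

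At Klf2, a gene known for its response to fluid shear in endothelial cells, promoter and distal regions went opposite ways. The promoter region chr8:72318655-72320133 held 342 stretched and 296 control counts, a fold of 1.22 (1.04 to 1.43). This fold turned to 0.863 with scaling by all counts and to 0.867 with the count trend removed. The 4 distal regions together held 146 stretched and 226 control counts, a fold of 0.683 (0.551 to 0.844), the only member with a distal interval below 1 with TMM scaling. That of Klf13 was also below 1 with the large regions left out of the totals and with the count trend removed, and those of Klf3, Klf4, Klf10 and Klf13 were with scaling by all counts. The strongest of them, chr8:72322553-72323252, held 50 stretched and 79 control counts, a fold of 0.669 (0.460 to 0.965). The gene fold was 0.988 (0.871 to 1.12), from 488 and 522 counts.

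Klf3, the CtBP-recruiting repressor, had 9 regions and none called higher or lower, although a weak region with 21 stretched and 11 control counts had a fold of 2.02 (0.930 to 4.63). Together they held 470 stretched and 475 control counts, a fold of 1.05 (0.918 to 1.19), and the strongest, chr5:64811263-64812948 inside the gene, held 209 and 189, a fold of 1.17 (0.955 to 1.43). By the rule no promoter region belonged to Klf3. The region at its annotated start, chr5:64802862-64804371, went to Gm38457, a shorter gene that overlaps it. That region held 336 stretched and 199 control counts, a fold of 1.78 (1.49 to 2.14), and its tallest summit reached 144 stretched and 91 control fragments. Given its overlapped regions, Klf3 had a gene fold of 1.25.

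The SIN3A-recruiting members had 1 region higher and 1 lower of 35, beside the 6.9% and 8.66% of all assigned regions. All 4 of their promoters had an interval above 1, a share that was not computed over all promoter regions. Folds as high as theirs were reached by 10.2% (Klf9), 13.8% (Klf11), 24.0% (Klf13) and 32.5% (Klf10) of promoter regions with at least 200 counts. With the count trend removed, the promoter intervals of Klf10 and Klf13 held 1. Klf9, a factor regulated by glucocorticoids and by the daily clock, held both the higher and the lower region. Its promoter region chr19:23140365-23143083 held 476 stretched and 240 control counts, a fold of 2.1 (1.79 to 2.46), which 10.2% of strong promoter regions reached. The strongest distal region of all members, chr19:23133908-23136502, lies 4724 bp upstream and held 718 stretched and 393 control counts, a fold of 1.93 (1.70 to 2.19).

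The other 6 regions of Klf9 were weaker, and 5 of them had a fold below 1. The exception, chr19:23091649-23092051, held 19 stretched and 13 control counts, a fold of 1.54 whose interval holds 1. The region chr19:23116933-23117258, 23968 bp upstream, was the only KLF region called lower, with 8 stretched and 25 control counts, a fold of 0.338 (0.132 to 0.773). Both regions inside the gene downstream of the start had folds below 1, 0.923 and 0.724, with intervals that hold 1. The gene fold of 1.68 (1.54 to 1.83), from 1369 stretched and 863 control counts, therefore rests on the promoter and the region upstream of it, and with the count trend removed it was 1.19.

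Klf10 and Klf11, both named for their early induction by TGF-beta, had promoters with intervals above 1 that stayed under the limit. The Klf10 promoter region chr15:38298950-38301849 held 807 stretched and 534 control counts, a fold of 1.60 (1.43 to 1.78). Without the count trend this fold was 0.962. Its strongest distal region, chr15:38323815-38324635, held 151 stretched and 125 control counts, a fold of 1.28 (from just above 1 to 1.63). The gene in all had 1142 stretched and 850 control counts, a fold of 1.42 (1.30 to 1.55), and 0.992 with the count trend removed.

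Klf11 was the member with the fewest regions. The promoter region chr12:24650617-24652697 held 546 stretched and 293 control counts, a fold of 1.97 (1.71 to 2.28). The single distal region, chr12:24644172-24644549, held 17 and 9 counts, a fold of 2.0 whose interval holds 1. Summed, the gene fold was 1.97 (1.71 to 2.27), and 1.33 with the count trend removed.

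Klf13, which regulates chemokine expression in T cells, had the most regions and the largest gap between promoter and distal sites after Klf2. Its promoter region chr7:63937328-63939863 held 912 stretched and 555 control counts, a fold of 1.74 (1.56 to 1.93). Its 18 distal regions held 1544 stretched and 1646 control counts, a fold of 0.991 (0.924 to 1.06), the strongest being chr7:63896634-63897751 inside the gene with 322 and 316 counts. The promoter fold was 1.23 with scaling by all counts and 1.03 (0.922 to 1.14) with the count trend removed. The gene fold of 1.18 (1.11 to 1.25) turned below 1 with scaling by all counts (0.834) and with the count trend removed (0.900).

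The ratio of the promoter fold to the distal fold of the same gene does not depend on the scaling of the libraries, though it does depend on the trend with the count. It was 1.79 (1.37 to 2.34) at Klf2, 1.75 (1.54 to 1.99) at Klf13, 1.54 (1.18 to 2.02) at Klf6, 1.43 (1.17 to 1.73) at Klf10, 1.38 (1.14 to 1.67) at Klf9 and 1.34 (1.09 to 1.65) at Klf7. It was 1.08 at Klf4, 0.987 at Klf11 and 0.925 at Klf5, with intervals that hold 1. Over the 6029 genes with at least 100 counts in each class the median was 1.27 and 73.8% lay above 1, so a promoter fold above the distal fold was the common case among genes. Klf5, whose distal regions had a higher fold than its promoter, was on the other side of 1 together with Klf11, both with intervals that hold 1. With the count trend removed, the ratio turned to 0.891 at Klf7, 0.904 at Klf10 and 0.894 at Klf4. It was then 1.34 at Klf9, 1.32 at Klf6, 1.24 at Klf2, 1.21 at Klf13, 0.606 at Klf11 and 0.592 at Klf5, beside a median of 1.09 over the 6029 genes, of which 59.7% lay above 1.

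The authors' peak calls give a second reading of the same promoters, made in each library on its own. All 9 promoter regions held a peak in both libraries, and the tallest summit moved by at most 39 bp. At the Klf6 summit 117 fragments overlapped in the stretched and 54 in the control library, at Klf7 225 and 111, and at Klf9 191 and 87. The summits of Klf13 reached 304 stretched and 165 control fragments, and those of Klf11 141 and 71. Those of Klf4 reached 51 and 44. Scaled to the filtered fragments, of which the stretched library had 23876613 and the control 31944854, the ratio of the pileups ran from 1.55 to 2.94 at the KLF promoters, beside a median of 1.81 over 11744 promoter regions with a peak in both. The authors' fold enrichment over the local background of the same library differed less. It was 7.95 stretched and 7.33 control at Klf6, 9.44 and 7.99 at Klf7, 8.29 and 7.07 at Klf9, and 13.4 and 14.2 at Klf5, with a ratio from 0.941 to 1.39 over the 9 promoters and a median of 1.29 over the same 11744 promoter regions. The Klf6 promoter, first by the fold of counts, had an enrichment ratio of 1.08.

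**Figure D4:**
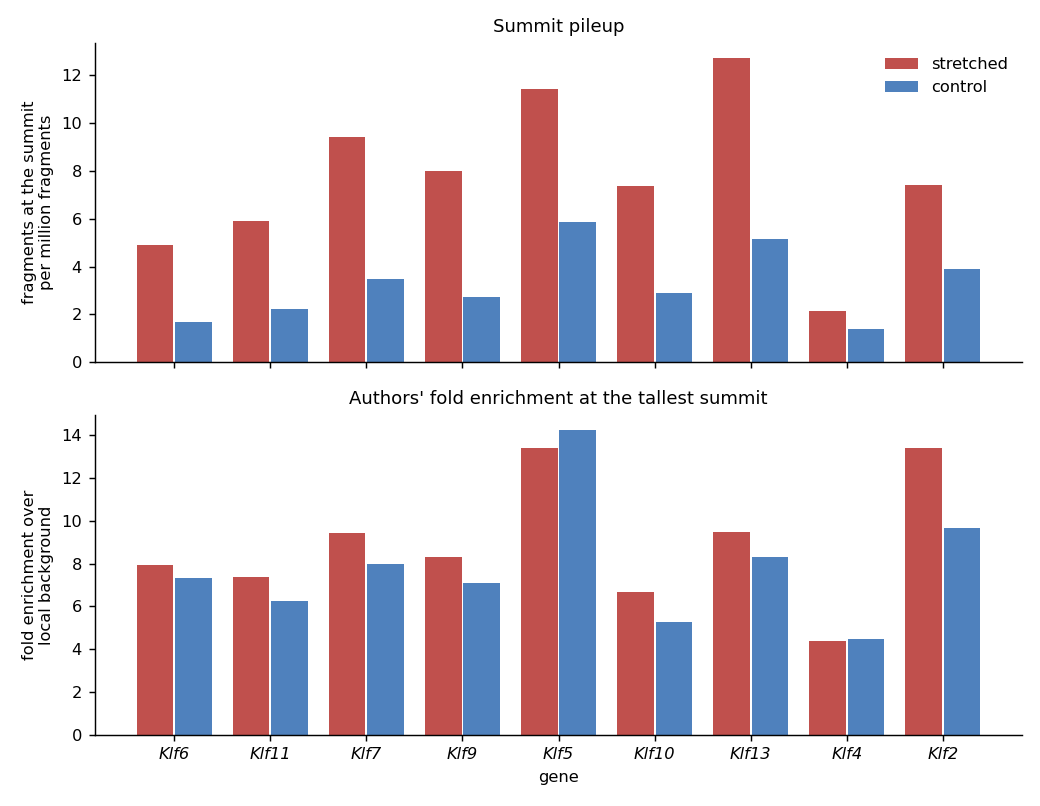
The authors' summit values at the tallest peak of each KLF promoter, stretched left of control; top, fragments at the summit at equal numbers of filtered fragments, and bottom, fold enrichment over the local background of the same library, both from 0 and with no error bars since each is 1 value. Pileups are higher in the stretched library at all 9 promoters, while the enrichment differs less and is slightly lower at Klf5 and Klf4.

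Over all 90 regions, 58 held a peak in both libraries, 13 in the stretched library alone, 5 in the control alone and 14 in neither. The corresponding shares of all assigned regions were 61.0% in both, 14.1% in the stretched library alone and 9.24% in the control alone. Of 76 stretched KLF peaks, 59 overlapped a control peak by at least 1 bp, 77.6% (66.6 to 86.4), beside 78.4% of all stretched peaks. Of 69 control KLF peaks, 62 overlapped a stretched peak, 89.9% (80.2 to 95.8), beside 84.5% of all control peaks. The KLF intervals hold the shares of all peaks in both directions, but they treat peaks of the same gene and library as independent. With a -log10 q of at least 5, the shares were 67.7% of stretched KLF peaks, beside 77.6% of all, and 88.2% of control KLF peaks, beside 86.4%.

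The surroundings of several genes went the same way as the genes. Over the regions from 50 to 500 kb away on both sides, the median log2 fold was 0.58 around Klf6 (45 regions, 10 higher and 2 lower, with no other protein-coding gene in that window), 0.57 around Klf7, 0.49 around Klf5 and 0.42 around Klf11. It was 0.28 around Klf13, 0.17 around Klf2, 0.15 around Klf10, -0.13 around Klf9, -0.22 around Klf4 and -0.37 around Klf3. The members' own median log2 folds were 1.05 at Klf6, 0.59 at Klf7, 0.66 at Klf5, 0.99 at Klf11, -0.04 at Klf13, -0.47 at Klf2, 0.18 at Klf10, -0.13 at Klf9, 0.03 at Klf4 and 0.08 at Klf3, so that Klf2, Klf3, Klf4 and Klf13 differed in sign from their surroundings. Across the 10 genes, which share both libraries, Spearman's rho between the medians was 0.65, and 7 of 10 genes lay above their surroundings. With the median of the surroundings divided out, 6 KLF regions were higher and 3 lower, against 5.63% and 7.48% of the assigned regions treated alike. Of the higher ones 1 was at Klf6, whose gene fold was then 1.47. The part of the surroundings in the KLF folds was not tested.

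**Figure D5:**
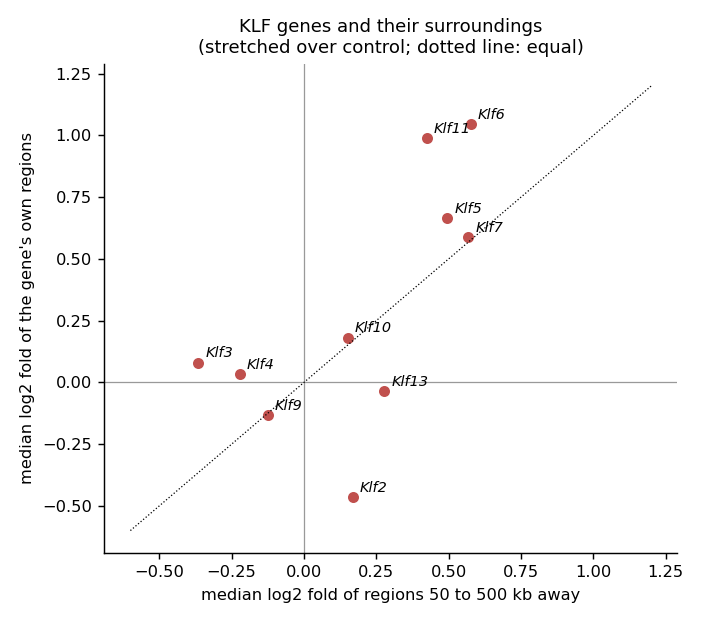
Median log2 fold (stretched over control) of each KLF gene's own regions against that of the regions 50 to 500 kb away from it, 1 point per gene; the dotted line marks equal values. Klf6, Klf11, Klf5 and Klf7 have the highest values on both axes, and Klf6 stands at 1.05 with its surroundings at 0.58.

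The rest of the family served as a comparison. The other 16 KLF and SP genes (Klf1, Klf8, Klf12, Klf14, Klf15, Klf16, Klf17 and Sp1 to Sp9) had 97 regions, of which 8 were higher and 6 lower, shares close to the 6.9% and 8.66% of all assigned regions, with a median log2 fold of -0.06. An interval above 1 was found for the summed counts of 5 of the 16 genes and below 1 for 3, against 36.1% and 18.6% of all genes. Sp4, a factor best studied in the brain, had 3 of 5 regions higher and 1750 stretched against 717 control counts, a fold of 2.58 (2.36 to 2.82), larger than that of any of the 10 members. Most of this came from its promoter region, with 1651 stretched and 637 control counts and a fold of 2.74. Sp3, a ubiquitous relative, had 1 region higher and 1 lower of 17 and a fold of 1.12 (1.03 to 1.22), and Sp2 had 1 higher and 1 lower of 9 and a fold of 0.978.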

How the data were processed

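The stretched and the control library were assigned to their groups by the treatment label. Per the submitters' processing notes, the build was GRCm38 and the tools were MACS2 2.1.0.20151222, Bowtie2 2.2.6, HTSeq, Picard and SAMtools. For each library the authors deposited unnormalized counts over a common set of merged regions. The authors called peaks per library without a control file at a q cutoff of 0.05, per the file headers. The deposited summit pileup is a signal in whole fragments, and the deposited -log10 q and the ratio called fold enrichment compare it with the local background in that library. The sources used here do not state whether reads or fragments were counted, nor the treatment of duplicates and of the Tn5 shift.

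Starts of regions in the count files are 0-based, and 1 was added for printing. TMM factors came from edgeR 4.0.16 in R 4.3.3 over all regions. Exact Clopper-Pearson intervals (95%) of the stretched share of the summed count cover counting error only, since no molecular identifiers were available to tell molecules from copies. A count of 0 was set to 3. The calling step was tested on simulated data with counting error only, with larger changes and higher counts than the limits used here. That test therefore does not cover calls near these limits. The members' regions, promoters, distal sums and called regions with at least 100 counts were named by rule, as were the 3 other family genes with the most called regions. The Klf6 and Klf5 regions with fewer counts, those of Klf7 and Klf9 and the overlapped Klf3 start fall outside this rule and were chosen with their values known. The members and lists were chosen with earlier results of these data known, and the division by role is background knowledge. Alternatives were scaling by all counts, by counts outside the large regions and by size factors from DESeq2 1.42.0, a lowess trend of the log2 fold on the count taken out, and other count, fold, interval, distance and promoter limits. No annotation of exons, introns or UTRs was used here. Further computation was done in Python 3.11.15 with statsmodels 0.14.6, scipy 1.17.1, pandas 2.3.3, numpy 2.4.6 and matplotlib 3.10.9.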

Additional observations from a re-analysis of the deposited data

How the results depend on the processing

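Of 90 KLF regions, the 14 higher ones became 3 with scaling by all counts and 7 with scaling outside the large regions. They became 26 at a fold limit of 1.5, 6 of 47 regions within 10 kb and 5 of 37 within the span or 1 kb of it. With the surroundings divided out they became 6 of 90. Shares of all assigned regions at the other fold and distance limits were not computed. The 1 lower region became 9, 2, 2, 0, 0 and 3 under the same alternatives, 3 with no minimum count and 0 at a minimum of 50 counts. Members with a promoter interval above 1 numbered 4 with the count trend removed, against 8 in the main setting. Those with a distal interval above 1 numbered 2 with scaling by all counts, against 4. Neither share was computed over all genes. Among gene folds with an interval above 1, those that turned below 1 were Klf13 (0.834 with scaling by all counts, 0.900 with the trend removed, 0.973 with the surroundings divided out) and Klf10 (0.992 with the trend removed). Among such promoter folds, Klf2 (0.863 with scaling by all counts, 0.867 with the trend removed) and Klf10 (0.962 with the trend removed) turned. Folds whose interval holds 1 also fell below it under these alternatives, Klf3 to 0.739 and 0.979, Klf4 to 0.759 and 0.981 and the Klf4 promoter to 0.803 and 0.904. The cause was not tested, except that the first scaling lowers every fold by construction. The alternatives for promoters and distal sums, the surroundings and the overlapped regions were chosen after seeing the data. Of all other alternatives for single folds, 171 moved them by less than the counting interval and 56 by more, without turning one whose interval excluded 1. Members with a gene fold interval above 1 numbered from 5 to 8. No paired analysis was possible because each group had 1 library. Low counts limit the weak regions, where intervals span several-fold.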
